A study of Homo sapiens with 12 samples.

Results

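The genes described here are the transcription factors that set hepatocyte identity, chosen by name from the gene symbols of the deposited tables: HNF4A, FOXA1, FOXA2, FOXA3, CEBPA, CEBPB, PROX1 and NR5A2. Rows were found for 7 of these 8 genes among 98711 genes listed, of which 27249 carry an Ensembl identifier. CEBPA was not analysed here. Messenger RNA was measured by RNA sequencing in Huh7 and HepG2, 2 human liver cancer cell lines with hepatocyte features, with 3 samples each of sorafenib-resistant and parental cells. Per the labels, all cells were wild type. The resistant cells were first given sorafenib, a multikinase inhibitor used against hepatocellular carcinoma (HCC), at 10 μmol, recovered without the drug, and were taken through further rounds at rising concentrations over 8 months. The sources used here do not say whether each resistant line is a clone or a mixed population, whether the drug was present at harvest, or whether the 3 samples of a group came from separate cultures, so p-values measure only the spread between these samples, which may be technical.

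Hepatocyte identity is held by a small network of DNA-binding proteins that bind each other's genes and the genes of plasma proteins, lipid transport and metabolism. HNF4A is a nuclear receptor at the centre of this network. The FOXA proteins are pioneer factors that open liver enhancers, the C/EBP proteins are leucine-zipper factors that drive metabolic and acute phase genes, NR5A2 (LRH-1) is a nuclear receptor of bile acid and cholesterol genes, and PROX1 is a homeobox protein that can act as a corepressor of HNF4A and NR5A2. In hepatocytes, HNF4A is transcribed from an upstream start that is used early in development and a downstream start that prevails in the adult liver.

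Expression was read as FPKM, fragments scaled by exon length and by the reads of the library, a scale on which genes of different length can be set side by side. The tables state no unit. Their values fall on whole multiples of 1 read after multiplication by exon length, which also gives 12290128 to 19285959 reads per sample. Each of the 7 genes came out as whole reads in every sample, with a largest deviation of 0.0342 of a read. All 10 hepatocyte markers checked, albumin and apolipoproteins among them, averaged at least 1 FPKM in every group, with summed levels of 3763 to 6828 FPKM per sample. The 7 fibroblast and stellate markers summed to 3.02 to 4.68 FPKM in Huh7 and 15.9 to 26.4 FPKM in HepG2 samples. The 7 endothelial and immune markers summed to 2.43 to 3.28 FPKM in Huh7 cells, 2.26 to 2.91 FPKM in resistant and 4.20 to 5.06 FPKM in parental HepG2 cells. Of the latter PECAM1 rose in Huh7 (0.31, adjusted p = 0.021) and fell in HepG2 resistant cells (-0.81, adjusted p = 0.012), and of the former PDGFRB fell in HepG2 resistant cells (-0.56, adjusted p = 0.047), by the limma test described with the Huh7 comparison. The PECAM1 call in Huh7 was lost without each library's trend with GC content and with the Ensembl genes of each sample scaled to the same sum.

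The measured genes lie on 4 chromosomes of the GRCh38 assembly. HNF4A (ENSG00000101076) is at chr20:44355700-44434596 on the plus strand, CEBPB (ENSG00000172216) at chr20:50190734-50192689 on the plus strand and FOXA2 (ENSG00000125798) at chr20:22581005-22585455 on the minus strand. FOXA1 (ENSG00000129514) is at chr14:37589984-37596059 on the minus strand and FOXA3 (ENSG00000170608) at chr19:45863989-45873797 on the plus strand. NR5A2 (ENSG00000116833) is at chr1:200027602-200177424 and PROX1 (ENSG00000117707) at chr1:213983181-214041502, both on the plus strand. CEBPB has 1 exon, and HNF4A has up to 11 in one transcript. Exonic GC content ran from 41.3% in PROX1 and 42.2% in NR5A2 to 51.5% in FOXA1, 53.4% in HNF4A, 59.2% in FOXA2, 61.2% in FOXA3 and 66.2% in CEBPB.

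RefSeq start sites on GRCh38.p14 were matched by symbol for 5 of the genes, with 8 windows, since HNF4A, CEBPB and NR5A2 have a pair of starts each. FOXA2 and PROX1 have no entry. The 250 bases before a start are shown for the 4 windows that contain no annotated exon. They belong to HNF4A, which was among the genes that rose in resistant Huh7 cells, to NR5A2, which fell there, and to CEBPB. The latter differed most between the lines. Capitals mark matches, on either strand, to short motifs of liver factors: TGTTTNC for FOX proteins, CAAAGTCC for HNF4, TTGCNNAA for C/EBP, ATCAAT for ONECUT, CAAGGTCA for NR5A and the TATA box TATAAA. The windows are HNF4A upstream start at chr20:44355449-44355698, HNF4A downstream start at chr20:44400989-44401238, NR5A2 second start at chr1:200042341-200042590 and CEBPB first start at chr20:50190333-50190582, all on the plus strand.
HNF4A upstream: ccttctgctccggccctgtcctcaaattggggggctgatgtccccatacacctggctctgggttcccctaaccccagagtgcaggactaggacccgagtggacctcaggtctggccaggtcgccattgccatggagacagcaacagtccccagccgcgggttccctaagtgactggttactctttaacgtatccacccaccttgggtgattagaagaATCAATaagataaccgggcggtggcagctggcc
HNF4A downstream: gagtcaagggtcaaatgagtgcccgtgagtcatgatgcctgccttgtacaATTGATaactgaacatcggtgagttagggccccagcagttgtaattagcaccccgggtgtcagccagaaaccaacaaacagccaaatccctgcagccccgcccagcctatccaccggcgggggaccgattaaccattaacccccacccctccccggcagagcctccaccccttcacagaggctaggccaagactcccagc
NR5A2 second: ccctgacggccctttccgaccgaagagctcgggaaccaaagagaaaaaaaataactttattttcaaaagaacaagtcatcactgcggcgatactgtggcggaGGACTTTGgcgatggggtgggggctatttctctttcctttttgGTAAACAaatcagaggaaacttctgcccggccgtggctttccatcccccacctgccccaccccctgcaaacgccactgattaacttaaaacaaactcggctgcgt
CEBPB first: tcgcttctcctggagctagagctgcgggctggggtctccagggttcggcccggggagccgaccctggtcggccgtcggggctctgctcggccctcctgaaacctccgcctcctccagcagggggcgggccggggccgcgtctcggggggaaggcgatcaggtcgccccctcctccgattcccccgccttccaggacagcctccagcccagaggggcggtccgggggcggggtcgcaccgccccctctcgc

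The downstream HNF4A window held 1 ONECUT match at bases 200 to 195 before the start, and the upstream HNF4A window held 1 at bases 33 to 28. In the NR5A2 window there was 1 FOX match at bases 105 to 99 and 1 HNF4 match at bases 148 to 141. No motif of the 6 was found in the CEBPB window, which says only that these letters are absent from these 250 bases. Of 35116 RefSeq windows of this length, 5.58% held the ONECUT motif, 15.5% the FOX motif, 1.02% the HNF4 motif, 9.05% the C/EBP motif, 1.14% the NR5A motif and 10.7% the TATA box. The GC content was 58.4% and 58% in the HNF4A windows, 50.8% in the NR5A2 window and 75.6% in the CEBPB window, against a median of 58% over all windows. A match is a description of the sequence and does not show that a factor binds there. The deposited values are per gene, so the starts of HNF4A, NR5A2 or CEBPB cannot be told apart in them.

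HNF4A, the FOXA factors and PROX1 were well expressed in both lines. In parental Huh7 cells PROX1 led with 71.0 ± 2.96 FPKM (mean ± SD, n = 3 here and below), followed by FOXA1 and HNF4A, whose samples overlapped, then FOXA3, FOXA2 and NR5A2, which also overlapped, and CEBPB was the lowest. In resistant Huh7 cells HNF4A, FOXA1 and FOXA3 led, and FOXA1 overlapped both HNF4A and FOXA3, which did not overlap each other. PROX1, FOXA2, NR5A2 and CEBPB followed without overlap. In HepG2 cells HNF4A had the highest mean in both groups, followed by PROX1. CEBPB took place 3 of the 7 in parental HepG2 cells and place 6 in resistant ones, while NR5A2 was the lowest in both. In parental HepG2 cells the samples of each gene overlapped those of the next in this order, NR5A2 apart. Among resistant ones CEBPB overlapped FOXA2, the place above it. Every gene was above 3 FPKM in every sample, the lowest value being 3.48 FPKM, or 110 reads, for CEBPB in a parental Huh7 sample. By rank among the Ensembl genes, HNF4A lay between places 296 and 754 of a sample and NR5A2 between places 1984 and 5039.

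**Figure D1:**
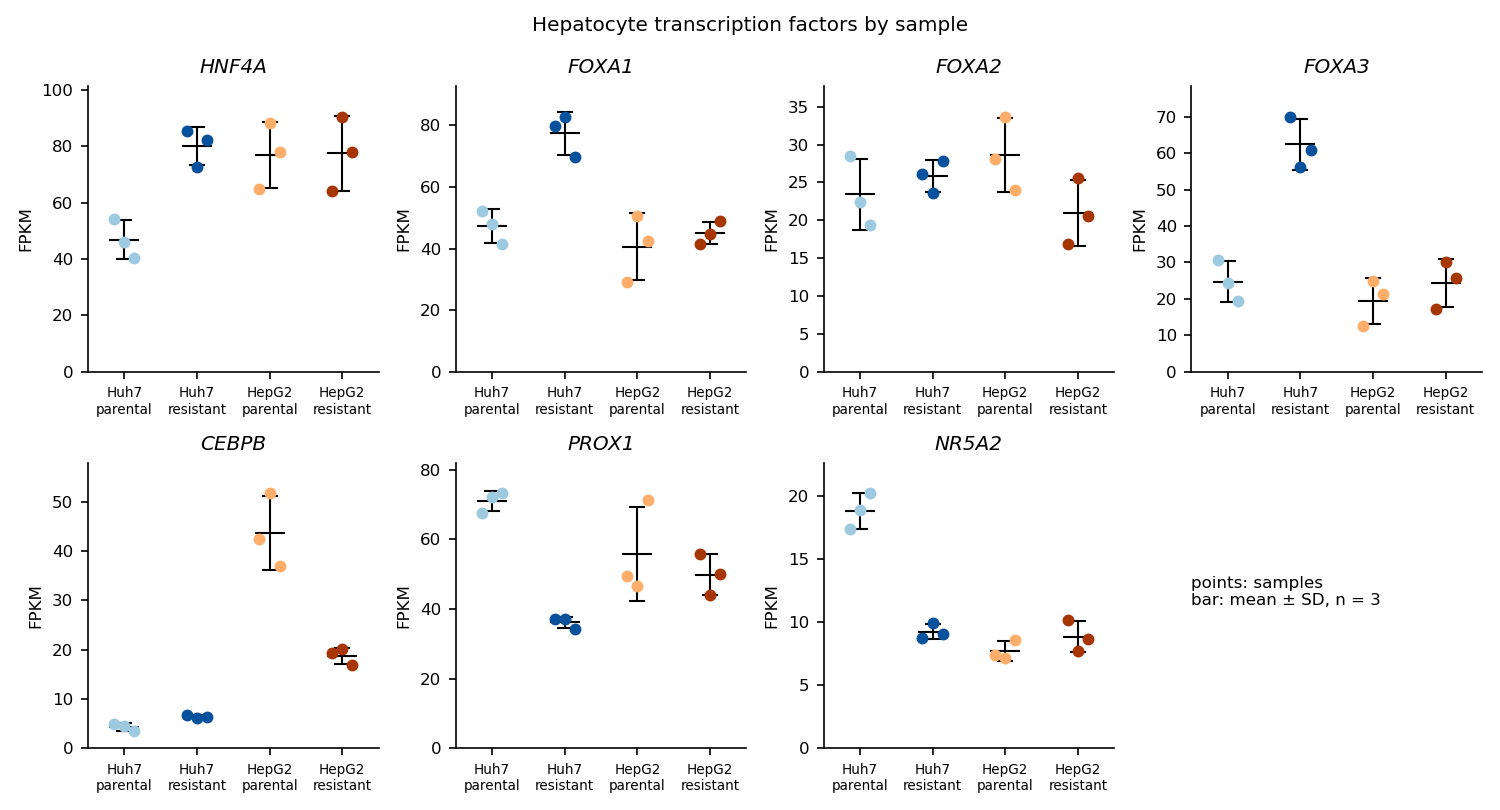
FPKM of 7 hepatocyte transcription factors in each sample. Panels are genes with separate linear axes from 0, points are samples, and bars show mean ± SD (n = 3). HNF4A, FOXA1 and FOXA3 are higher in resistant than in parental Huh7 cells and PROX1 and NR5A2 are lower, while in HepG2 cells only CEBPB has groups that do not overlap.

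Resistant Huh7 cells differed from parental Huh7 cells in 6 of the 7 genes. HNF4A, FOXA1, FOXA3 and CEBPB were higher and PROX1 and NR5A2 were lower, at an adjusted p under 0.05 on the log2(FPKM + 1) scale in limma, a two-sided test with Benjamini-Hochberg adjustment over all genes tested. This comparison was broad: 70.1% of the 12554 genes tested passed, 32.7% as higher and 37.4% as lower, so the count of 6 is close to this background. The groups did not overlap for 6 of the 7 genes, against 74.5% of all genes. Only FOXA3 also had a log2 fold change beyond 1, the study's threshold for a differentially expressed gene (DEG), which 22.6% of all genes met. In RNA from a whole culture, fewer cells of a kind and less RNA per cell cannot be told apart.

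HNF4A stood at 54.1, 46.0 and 40.5 FPKM in the parental Huh7 samples and at 85.5, 72.7 and 82.3 FPKM in the resistant ones. All resistant samples were above all parental ones. The ratio of means was 1.71, and the log2 fold change was 0.77 (SE 0.13, adjusted p = 0.00099), which 36.7% of the genes tested exceeded in size.

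Among the pioneer factors, FOXA3 had the largest change of the 7 genes in this line. It measured 30.7, 24.3 and 19.3 FPKM in parental and 70.0, 56.3 and 60.9 FPKM in resistant Huh7 samples. The groups were far apart, with a ratio of 2.52 and a log2 fold change of 1.32 (SE 0.17, adjusted p = 0.00023), and 10.7% of genes changed more. FOXA1 measured 52.4, 48.0 and 41.7 FPKM in parental and 79.9, 82.9 and 69.6 FPKM in resistant samples, again without overlap, with a log2 fold change of 0.70 (SE 0.12, adjusted p = 0.0012). FOXA2 overlapped between the groups, at 28.6, 22.5 and 19.4 FPKM in parental and 26.1, 23.6 and 27.8 FPKM in resistant samples. Its log2 fold change was 0.15, with a 95% interval from -0.19 to 0.49 (adjusted p = 0.40). The 3 FOXA genes together summed to 95.6 ± 15.6 FPKM in parental and 165.7 ± 9.21 FPKM in resistant Huh7 cells, and the share of FOXA3 in this sum was 25.7% ± 1.72 and 37.6% ± 2.68. FOXA2 made up 24.5% ± 1.00 in parental and 15.6% ± 1.70 in resistant cells. The sum and the shares use values as deposited. Without each library's trend with GC content the log2 fold changes were 0.37 for FOXA1, -0.40 for FOXA2 and 0.79 for FOXA3. The plot of the FOXA family by sample shows the larger FOXA3 segment in each resistant Huh7 sample.

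**Figure D2:**
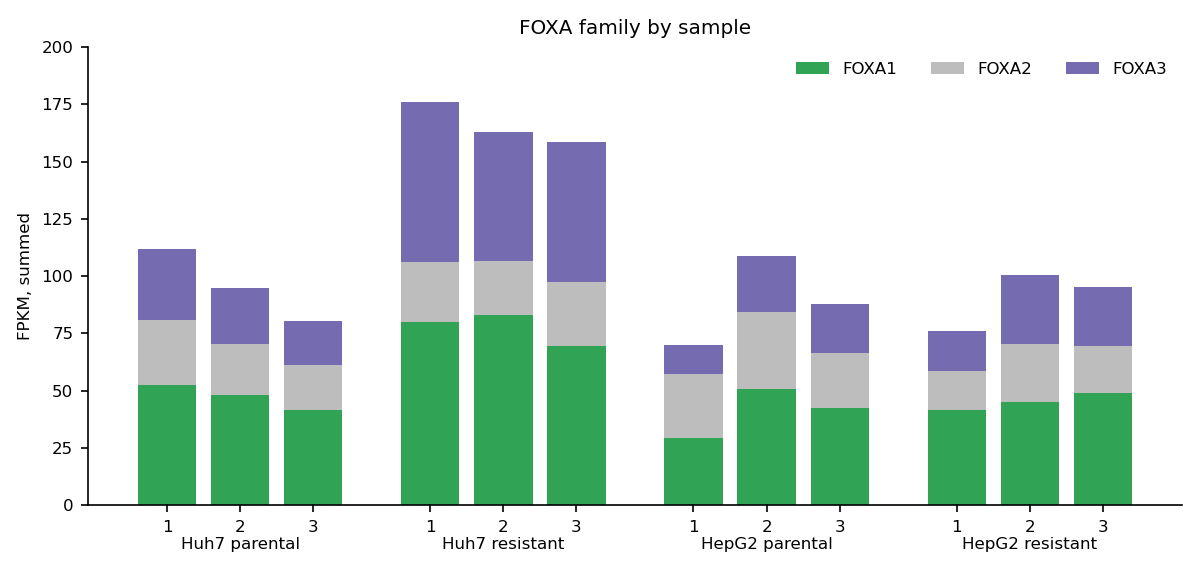
FPKM of FOXA1, FOXA2 and FOXA3 stacked for each sample, with the replicate number under each bar and the y axis from 0. Sums are 158.3 to 176.0 FPKM in resistant Huh7 samples and 69.7 to 111.6 FPKM in all other samples. Values are as deposited, with no GC trend taken off.

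PROX1 and NR5A2 moved the other way. PROX1 measured 67.6, 72.1 and 73.3 FPKM in parental and 37.1, 37.1 and 34.3 FPKM in resistant Huh7 samples. Its level in resistant cells was 0.51 of the parental level, a log2 fold change of -0.95 (SE 0.10, adjusted p = 8.8e-05). NR5A2 measured 17.4, 18.9 and 20.2 FPKM in parental and 8.73, 9.91 and 9.09 FPKM in resistant samples. Resistant cells held 0.49 of the parental level, again a log2 fold change of -0.95 (SE 0.11, adjusted p = 0.00012). Neither gene overlapped between the groups, and the log2 ratio of HNF4A to PROX1 went from -0.61 ± 0.27 in parental to 1.15 ± 0.16 in resistant Huh7 cells. This ratio combines changes that were smaller without each library's trend with GC content (0.34 for HNF4A and -0.42 for PROX1).

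CEBPB, an acute phase and stress-responsive C/EBP factor, was low in this line. It measured 4.90, 4.61 and 3.48 FPKM in parental samples, from 110 to 172 reads, and 6.79, 6.18 and 6.29 FPKM in resistant ones, from 233 to 252 reads. The groups did not overlap and the log2 fold change was 0.49 (SE 0.13, adjusted p = 0.0092).

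Library composition moved with these groups. Ensembl genes held 74.5% to 79.6% of the summed FPKM in parental and 85.5% to 87.7% in resistant Huh7 samples, and the remainder belonged to NONCODE transcripts. The part of this shift in the changes was not tested, but with the Ensembl genes of each sample scaled to the same sum the log2 fold change of HNF4A was 0.51 (adjusted p = 0.0047), of FOXA3 1.07 (adjusted p = 0.00049), of FOXA1 0.44 (adjusted p = 0.012), of PROX1 -1.24 (adjusted p = 5.7e-05) and of NR5A2 -1.28 (adjusted p = 8.8e-05). That scaling moved the median of all genes from -0.04 to -0.31, and CEBPB no longer passed (0.30, adjusted p = 0.090).

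The changes in Huh7 cells also went with GC content. The genes that rose have higher exonic GC than the genes that fell, and taking off each library's trend with GC content lowered the log2 fold change of HNF4A to 0.34 (adjusted p = 0.0044), of FOXA1 to 0.37 (adjusted p = 0.0075) and of FOXA3 to 0.79 (adjusted p = 0.00053), and drew those of PROX1 to -0.42 (adjusted p = 0.0015) and NR5A2 to -0.50 (adjusted p = 0.00033). These 5 kept their direction and an adjusted p under 0.05 in all 16 alternatives. Their size against the DEG threshold did not hold in the same way: FOXA3 was under a log2 fold change of 1 without the GC trend, with and without a replicate block, while NR5A2 passed it with a pseudocount of 0.1 (-1.02), limma-voom (-1.09), Ensembl scaling and without parental sample 1 (-1.01), and PROX1 with limma-voom (-1.04) and Ensembl scaling. CEBPB came to 0.04 without the GC trend (adjusted p = 0.77), and FOXA2 turned to -0.40 (adjusted p = 0.0025). The plot of changes by processing sets these values beside those of the deposited FPKM.

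**Figure D3:**
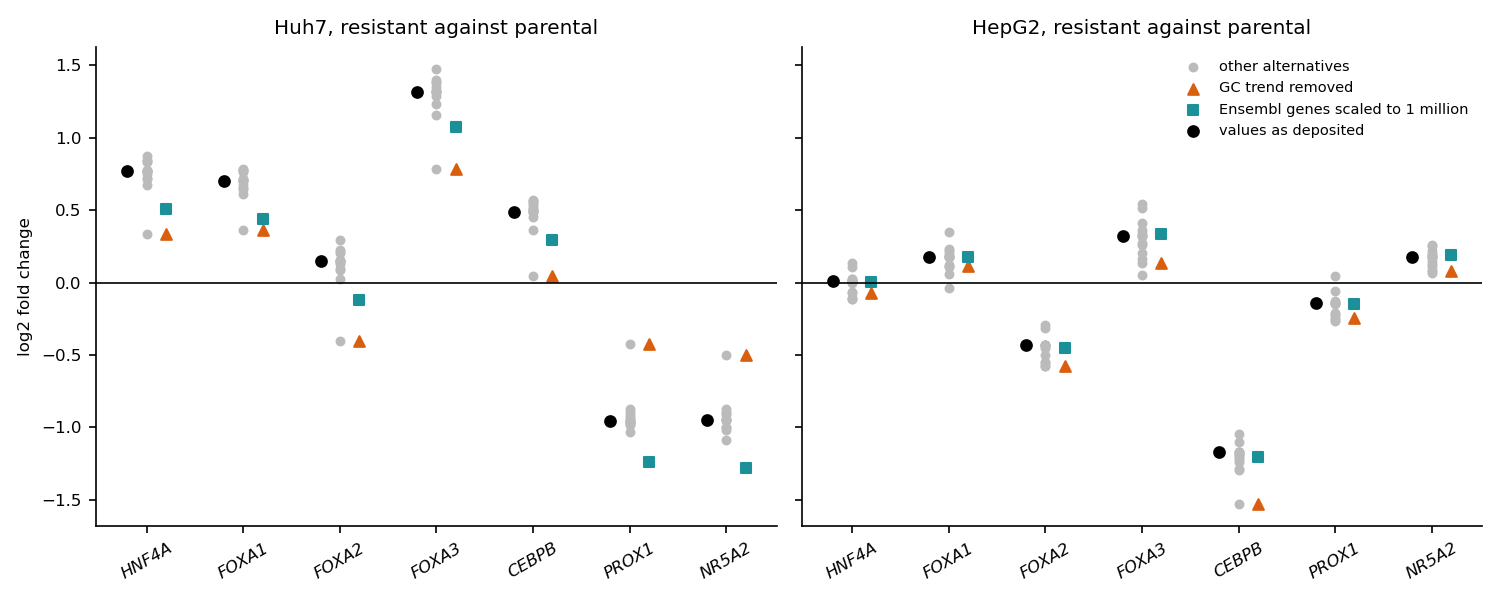
Log2 fold change, resistant over parental, of each gene in Huh7 and HepG2 cells. Black points are values as deposited, triangles are without each library's GC trend, squares have Ensembl genes scaled to the same sum, and grey points are the other alternatives. In Huh7 cells FOXA2 lies on both sides of 0 and CEBPB reaches 0.04, whereas HNF4A, FOXA1, FOXA3, PROX1 and NR5A2 stay on one side.

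In HepG2 cells 1 of the 7 genes passed the test, CEBPB, which was lower in resistant cells. Over all 11762 genes tested in this line 20.0% passed, 11.6% as higher and 8.43% as lower, and 6.27% were DEGs. The groups of 1 of the 7 genes did not overlap, against 40.4% of all genes.

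CEBPB measured 42.5, 51.7 and 36.9 FPKM in parental and 19.3, 20.1 and 16.8 FPKM in resistant HepG2 samples, from 566 to 1244 reads. Each resistant sample was below each parental one, at 0.43 of the parental mean. The log2 fold change was -1.17 (SE 0.16, adjusted p = 0.0026), which makes it a DEG, and 4.34% of genes changed more. It passed in all 16 alternatives, from -1.53 to -1.05.

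HNF4A measured 64.7, 88.2 and 77.9 FPKM in parental and 64.0, 90.5 and 77.9 FPKM in resistant HepG2 samples. These sets cover nearly the same range, and the log2 fold change was 0.01, with a 95% interval from -0.40 to 0.42. FOXA1 measured 29.1, 50.5 and 42.5 FPKM in parental and 41.6, 44.8 and 48.8 FPKM in resistant samples, a log2 fold change of 0.18 with an interval from -0.29 to 0.64, which became -0.04 without parental sample 1. FOXA3 measured 12.5, 24.8 and 21.3 FPKM in parental and 17.3, 30.1 and 25.7 FPKM in resistant samples, a log2 fold change of 0.32 with an interval from -0.31 to 0.96. Both genes overlapped between the groups, and the width of these intervals does not show that the levels are alike.

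FOXA2 was the nearest to the threshold among the genes that did not pass in HepG2 cells. It measured 28.1, 33.7 and 24.0 FPKM in parental and 16.9, 25.5 and 20.6 FPKM in resistant samples, which overlap at 1 resistant sample, and its log2 fold change was -0.43 (adjusted p = 0.14). Without the GC trend it passed, at -0.57 (adjusted p = 0.0080). PROX1 measured 49.5, 46.7 and 71.3 FPKM in parental and 55.7, 43.9 and 49.9 FPKM in resistant samples, a log2 fold change of -0.14 with an interval from -0.58 to 0.29. A single parental sample was high in it, and without that sample the log2 fold change was 0.04. NR5A2 measured 7.37, 7.14 and 8.61 FPKM in parental and 10.2, 7.76 and 8.67 FPKM in resistant samples, a log2 fold change of 0.18 with an interval from -0.17 to 0.52. The FOXA sum was 88.8 ± 19.6 FPKM in parental and 90.5 ± 12.9 FPKM in resistant HepG2 cells, and the log2 ratio of HNF4A to PROX1 was 0.48 ± 0.40 and 0.63 ± 0.42.

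**Figure D4:**
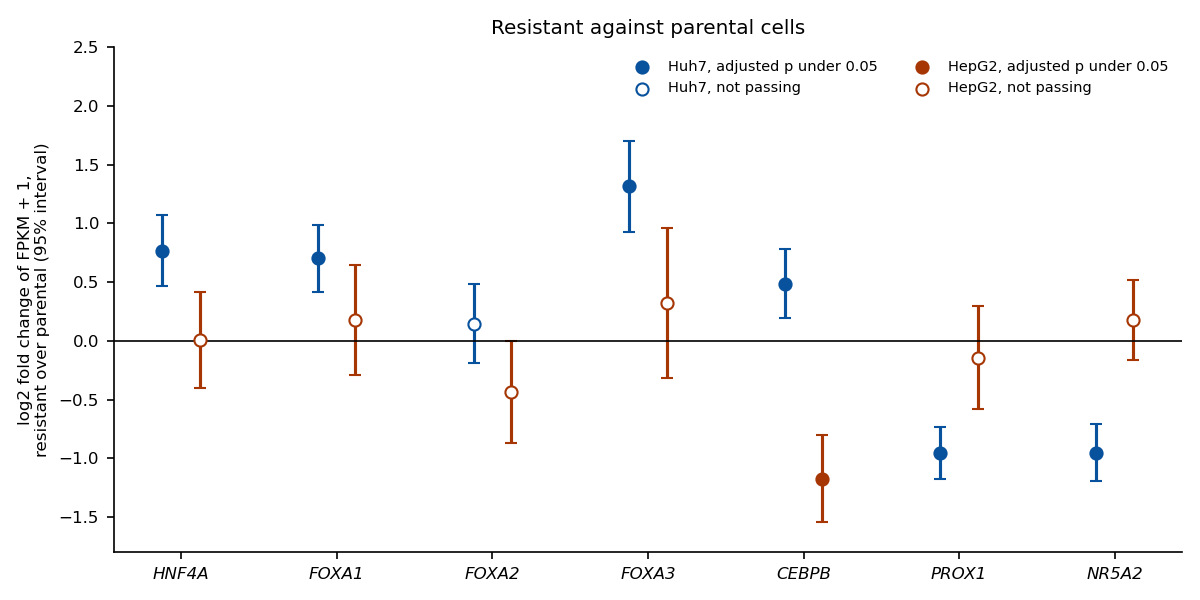
Log2 fold change of FPKM + 1, resistant over parental, with 95% intervals from limma, for Huh7 (blue) and HepG2 (brown) cells. Filled points have an adjusted p under 0.05. The filled points are 6 in Huh7 and 1 in HepG2, and CEBPB is the gene with filled points on both sides of 0.

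Whether the change with resistance differed between the lines was tested with the interaction of line and resistance over all 12 samples. It passed for 5 of the 7 genes, against 56.3% of the 10688 genes tested in both lines. The change in Huh7 less that in HepG2 was 1.66 for CEBPB (SE 0.20, adjusted p = 5.5e-05), 0.99 for FOXA3 (SE 0.36, adjusted p = 0.032) and 0.76 for HNF4A (SE 0.23, adjusted p = 0.013). It was -1.13 for NR5A2 (SE 0.17, adjusted p = 0.00020) and -0.81 for PROX1 (SE 0.21, adjusted p = 0.0064). CEBPB passed within both lines, in opposite directions, and the other 4 passed within Huh7 only. The CEBPB rise in Huh7 cells was lost without the GC trend (0.04, adjusted p = 0.77) and with Ensembl scaling (0.30, adjusted p = 0.090). For FOXA1 the difference was 0.52 (adjusted p = 0.089) and for FOXA2 0.58 (adjusted p = 0.066), so neither gene was shown to respond differently, but with median-ratio scaling both passed (0.73, adjusted p = 0.020, and 0.78, adjusted p = 0.018). Without parental HepG2 sample 1 the FOXA1 difference passed (0.74, adjusted p = 0.0064), and the FOXA2 difference passed without parental Huh7 sample 1 (0.73, adjusted p = 0.026), resistant HepG2 sample 2 (0.73, adjusted p = 0.025) or parental HepG2 sample 3 (0.70, adjusted p = 0.035). The FOXA3 difference missed the threshold in 9 of 21 alternatives, with an adjusted p of up to 0.083, and leaving out any one of 7 samples was among them. These were resistant samples 1 and 3 and parental samples 2 and 3 of Huh7, and resistant sample 1 and parental samples 2 and 3 of HepG2. The PROX1 difference fell to -0.20 without the GC trend (adjusted p = 0.24).

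The parental lines themselves differed in 4 of the 7 genes, against 67.9% of the 13628 genes tested, and the samples of 3 did not overlap, against 69.3% of all genes. CEBPB differed the most: parental Huh7 cells held 4.33 ± 0.75 FPKM and parental HepG2 cells 43.7 ± 7.50 FPKM, which is 10.1 times as much, a log2 difference of -3.07 (SE 0.14, adjusted p = 4.2e-09). On this measure 2.33% of all genes differed more. NR5A2 was 2.44 times as high in parental Huh7 cells (18.8 ± 1.44 against 7.70 ± 0.79 FPKM, log2 difference 1.19, adjusted p = 2.9e-06). HNF4A was lower in parental Huh7 cells, with 46.9 ± 6.82 against 76.9 ± 11.7 FPKM (log2 difference -0.70, adjusted p = 0.0021). PROX1 was near the threshold at 0.37 (adjusted p = 0.047), its samples overlapped, and without the GC trend its difference was -0.06. The PROX1 call was also lost without the filter on low values (adjusted p = 0.072), with median-ratio scaling (0.19, adjusted p = 0.25) and without any one of 5 parental samples (Huh7 samples 1, 2 and 3 and HepG2 samples 1 and 2), with an adjusted p of 0.065 to 0.17. FOXA1, FOXA2 and FOXA3 overlapped between the lines and did not pass, although FOXA1 did without parental HepG2 sample 2 (0.41, adjusted p = 0.048), FOXA3 without the GC trend (0.52, adjusted p = 0.022) and FOXA2 with median-ratio scaling (-0.45, adjusted p = 0.041).

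Resistant cells of the lines also differed in 4 genes, FOXA1, FOXA3, CEBPB and PROX1. Among all genes 64.8% passed and 70.8% did not overlap, which was the case for 4 of the 7. FOXA3 was 2.56 times as high in resistant Huh7 as in resistant HepG2 cells (62.4 ± 6.98 against 24.4 ± 6.48 FPKM, log2 difference 1.35, adjusted p = 0.00071), and FOXA1 1.72 times (77.5 ± 6.94 against 45.1 ± 3.62 FPKM, log2 difference 0.77, adjusted p = 0.0024). CEBPB stayed lower in Huh7, with 6.42 ± 0.33 against 18.7 ± 1.69 FPKM (log2 difference -1.41, adjusted p = 4.1e-06). PROX1 was lower in resistant Huh7 cells as well, at -0.45 (adjusted p = 0.021), a call lost with upper-quartile scaling and without 1 sample in 3 cases, resistant Huh7 sample 3 and resistant HepG2 samples 1 and 3. HNF4A, with 80.2 ± 6.70 against 77.5 ± 13.2 FPKM, and NR5A2, with 9.24 ± 0.61 against 8.87 ± 1.22 FPKM, both had a log2 difference of 0.06 and did not pass, although NR5A2 did without the GC trend (0.21, adjusted p = 0.0080). The intervals were -0.29 to 0.41 for HNF4A and -0.19 to 0.31 for NR5A2. These comparisons share their samples with those within the lines and are given side by side, not as separate evidence.

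Other liver transcription factors moved in both directions, as all genes did. Over all genes tested 32.7% rose and 37.4% fell in Huh7 cells, and 11.6% rose and 8.43% fell in HepG2 cells. Of 20 in the list, 18 were tested in Huh7 cells, where 4 rose and 4 fell. GATA6, a zinc finger factor of early liver development, fell from 14.2 to 5.25 FPKM on average (log2 fold change -1.26, adjusted p = 0.00021). The ONECUT factors, which bind the HNF4A upstream region in the developing liver, both fell, with log2 fold changes of -0.90 for ONECUT2 (adjusted p = 0.00018) and -0.77 for ONECUT1 (adjusted p = 0.00052). NR1I2, the xenobiotic receptor PXR, rose from 0.70 to 2.45 FPKM (log2 fold change 1.02, adjusted p = 0.00010), and it passed the filter on low values through the resistant samples. In HepG2 cells 19 were tested, of which 1 rose and 4 fell, with PPARGC1A, a coactivator of HNF4A, at -1.08 (adjusted p = 0.011), NR0B2 (SHP), a corepressor in the NR5A2 circuit, at -1.01 (adjusted p = 0.0079) and ONECUT2 at -0.75 (adjusted p = 0.034). The ONECUT2 call was lost with Ensembl genes scaled to the same sum. Median log2 fold changes of this list were 0.15 in Huh7 and 0.11 in HepG2 cells, against -0.04 and 0.12 over all genes. Without the GC trend 2 rose and 10 fell in Huh7 cells and the list median turned to -0.26, with Ensembl scaling 2 rose and 8 fell (median -0.12), and with median-ratio scaling 7 rose and 4 fell. In HepG2 cells 3 rose and 4 fell without the GC trend, with a median of -0.02.

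Relatives of the 7 genes fell where they passed the test. Over all genes tested 37.4% fell in Huh7 and 8.43% in HepG2 cells. In Huh7 cells 3 of 4 tested fell: CEBPD, an acute phase C/EBP factor (log2 fold change -0.92, adjusted p = 0.0016), HNF4G, the paralogue of HNF4A (-0.83, adjusted p = 0.00061), and CEBPG (-0.49, adjusted p = 0.0070). In HepG2 cells 2 of 5 tested fell, HNF4G (-1.21, adjusted p = 0.0094) and CEBPG (-0.74, adjusted p = 0.033). HNF4G thus moved against HNF4A in Huh7 cells, but its change there was -0.01 without the GC trend. CEBPG in HepG2 cells missed the threshold with Ensembl genes scaled to the same sum, and without the GC trend 3 relatives fell and 1 rose there. The median log2 fold change of the relatives was -0.66 in Huh7 and -0.47 in HepG2 cells, and -0.30 and -0.81 without the GC trend.

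Genes known as targets of these factors, from lists that share several genes, moved in both directions. The counts of each target list stand against 32.7% of all genes that rose and 37.4% that fell in Huh7 cells. In HepG2 cells these shares were 11.6% and 8.43%. Of 18 HNF4A targets 12 were tested in Huh7 cells, where 4 rose and 2 fell, and 13 in HepG2 cells, where 2 rose and 1 fell. With Ensembl scaling the balance in Huh7 cells turned, to 1 that rose and 4 that fell. Their median log2 fold change was 0.17 in Huh7, which turned to -0.11 without the GC trend and to -0.10 with Ensembl scaling, and 0.10 in HepG2 cells, which came to 0.02 with upper-quartile scaling and 0.01 without the GC trend and turned to -0.03 with median-ratio scaling. APOA2, an apolipoprotein of high-density lipoprotein, rose in both lines, by a log2 fold change of 1.55 in Huh7 (adjusted p = 5.8e-05) and 1.26 in HepG2 (adjusted p = 0.0023). FABP1, the liver fatty acid carrier, rose in Huh7 cells (0.50, adjusted p = 0.013), although not with Ensembl genes scaled to the same sum. PKLR, the liver pyruvate kinase, fell in Huh7 cells (-0.86, adjusted p = 0.00035), with means of 1.56 FPKM in parental and 0.41 FPKM in resistant cells, so that it passed the filter on low values through the parental samples, and rose in HepG2 cells (1.25, adjusted p = 0.0054). APOB, the core protein of low-density lipoprotein, fell in Huh7 cells (-0.48, adjusted p = 0.036), and this call was lost under upper-quartile and median-ratio scaling and without the GC trend. MTTP, which loads lipid onto APOB, fell in HepG2 cells (-0.87, adjusted p = 0.015).

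FOXA targets were tested in 7 of 10 cases in Huh7 cells, with 1 rise and 4 falls, and in 8 of 10 in HepG2 cells, with 2 falls. In Huh7 cells the falls numbered 2 under upper-quartile scaling, under median-ratio scaling and without the GC trend, and 5 with Ensembl scaling. The median log2 fold change was -0.46 in Huh7 cells, -0.14 without the GC trend and -0.73 with Ensembl scaling. In HepG2 cells it was 0.04, and it turned to -0.02 with upper-quartile scaling, -0.07 with median-ratio scaling and -0.05 without the GC trend, where 3 fell. AFP, alpha-fetoprotein, fell in both lines, from 5332 to 2291 FPKM in Huh7 (log2 fold change -1.21, adjusted p = 0.00053) and from 1394 to 366.3 FPKM in HepG2 (-1.91, adjusted p = 0.00090). ALB, albumin, fell in HepG2 cells (-0.93, adjusted p = 0.030). In Huh7 cells its log2 fold change was -0.46 (adjusted p = 0.046), which turned to 0.29 without the GC trend. CPS1, the entry enzyme of the urea cycle, was low, at 2.90 FPKM in parental and 1.04 FPKM in resistant Huh7 cells (-0.93, adjusted p = 0.00021), and TAT, tyrosine aminotransferase, was at 0.42 and 1.27 FPKM (0.67, adjusted p = 0.0018), passing the filter through the resistant samples.

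C/EBP targets numbered 6 tested in Huh7 cells, with 3 rises and 2 falls, and 7 in HepG2 cells, with 3 falls. Of the rises in Huh7 cells, TAT and ORM2 (0.65 to 0.95 FPKM in parental and 1.32 to 1.66 FPKM in resistant samples) passed the filter on low values through the resistant samples. In HepG2 cells, where CEBPB fell, the falling targets were ALB, ORM1 (-0.99, adjusted p = 0.0037) and ORM2 (-1.13, adjusted p = 0.0073). The latter pair code for the acute phase protein orosomucoid and are nearly identical in sequence, so reads may be divided between them. ORM1 rose in Huh7 cells (0.52, adjusted p = 0.0043), as did ORM2 (0.43, adjusted p = 0.010), and both calls were lost without the GC trend and with Ensembl scaling. The median log2 fold change of the list was 0.34 in Huh7 cells, but 0.03 without the GC trend, with 1 rise and 1 fall, and 0.11 with Ensembl scaling, with 1 rise and 2 falls. In HepG2 cells the median was -0.33, and -0.57 with Ensembl scaling. CRP was not analysed here.

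For NR5A2 and PROX1, 10 targets were listed, mostly genes of bile acid and cholesterol metabolism, with AFP beside them. Of these, 5 were tested in Huh7 cells, with 2 rises and 1 fall, and 7 in HepG2 cells, with 2 falls. The median log2 fold change was 0.14 in Huh7 cells, turning to -0.18 without the GC trend and to -0.12 with Ensembl scaling. It was 0.03 in HepG2 cells, turning to -0.03 with upper-quartile scaling, -0.08 with median-ratio scaling and -0.03 without the GC trend. SCARB1, the receptor for high-density lipoprotein, rose in Huh7 cells (0.75, adjusted p = 0.0014), as did APOA1 (0.97, adjusted p = 0.0093), which missed the threshold without the GC trend. The falling genes were AFP in both lines and NR0B2 in HepG2 cells.

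**Figure D5:**
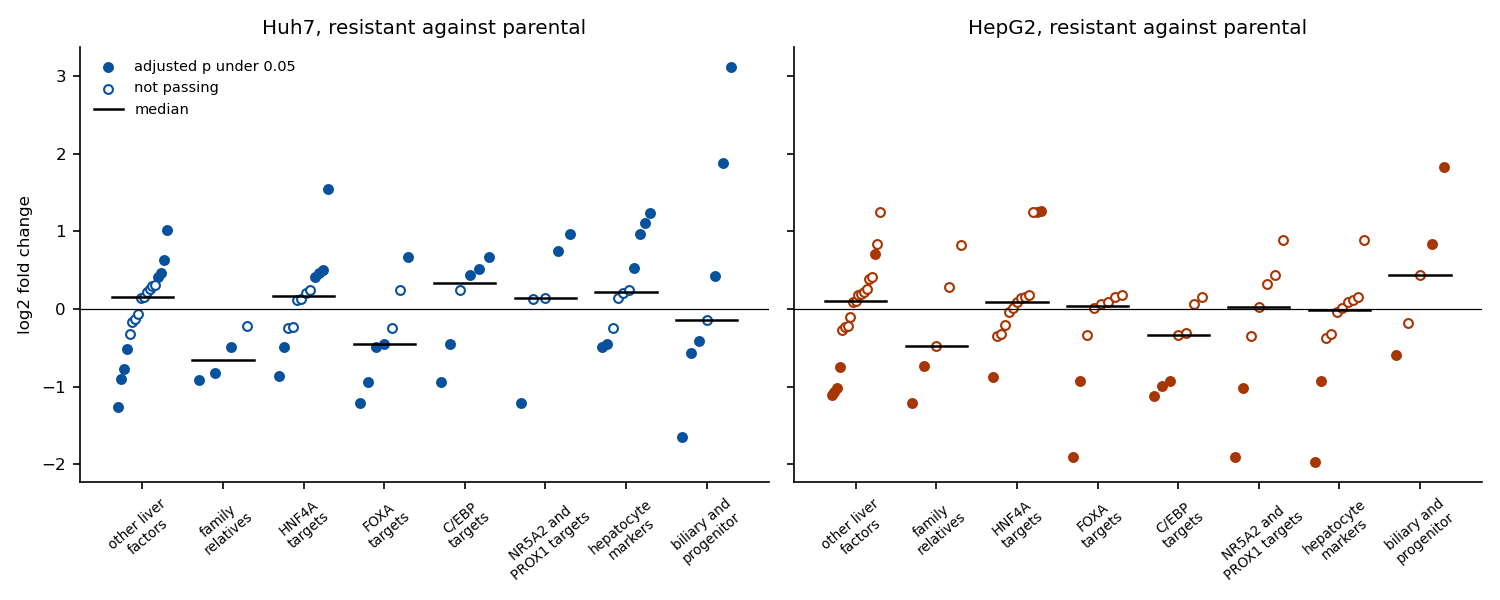
Log2 fold change, resistant over parental, of each tested gene of the lists in Huh7 (left) and HepG2 (right) cells. Filled points have an adjusted p under 0.05, and black lines are list medians. Lists share genes. In Huh7 cells filled points lie on both sides of 0 in each list but the family relatives, where they lie below it.

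Markers of hepatocytes and of bile duct or progenitor cells were followed as the outcome these factors are known for. Among all genes 32.7% rose and 37.4% fell in Huh7 cells, and 11.6% rose and 8.43% fell in HepG2 cells. Of 10 hepatocyte markers 4 rose and 2 fell in Huh7 cells, although 0 fell under upper-quartile scaling, under median-ratio scaling and without the GC trend, and 3 fell with Ensembl scaling. RBP4, a plasma retinol carrier (1.24, adjusted p = 0.00016), and AHSG, a plasma glycoprotein (1.11, adjusted p = 0.00022), were among those that rose. ASGR1, the hepatocyte asialoglycoprotein receptor, rose by 0.53 (adjusted p = 0.0032), a call lost without the GC trend. In HepG2 cells 2 fell, ALB and the fibrinogen chain FGB, which went from 47.3 to 11.2 FPKM (-1.98, adjusted p = 0.00083). Of the biliary and progenitor markers 3 of 7 tested rose and 3 fell in Huh7 cells. KRT19, a keratin of bile duct cells, went from 7.18 to 70.4 FPKM (3.12, adjusted p = 7.8e-06) and EPCAM, an epithelial progenitor marker, from 6.14 to 25.4 FPKM (1.89, adjusted p = 6.6e-06), while PROM1 (CD133) fell (-1.65, adjusted p = 1.7e-05) and SOX9, the biliary transcription factor, fell (-0.57, adjusted p = 0.0057). In HepG2 cells 2 of 5 rose and 1 fell, with SPP1, osteopontin, at 1.83 (adjusted p = 0.0019), KRT19 at 0.83 (adjusted p = 0.034) and SOX9 at -0.60 (adjusted p = 0.045). The KRT19 call in HepG2 cells was lost under upper-quartile and median-ratio scaling. The median log2 fold change of hepatocyte markers was 0.22 in Huh7 cells, which turned to -0.05 with Ensembl scaling, and -0.01 in HepG2 cells. That of biliary and progenitor markers was -0.15 in Huh7 cells, which turned to 0.13 without the GC trend and came to -0.45 with Ensembl scaling, and 0.44 in HepG2 cells. Their part in the changes of the 7 genes was not tested.

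Several genes lie across the 7 genes, and the sources used here do not state whether reads were counted by strand. TTC6, on the opposite strand, shares 16 exonic bases with FOXA1 and was at 4.41 to 6.56 FPKM in parental and 1.31 to 1.56 FPKM in resistant Huh7 samples, where FOXA1 was higher. PROX1-AS1 shares 171 bases, or 1.92% of the PROX1 exons, from the opposite strand. It fell with PROX1 in Huh7 cells (-0.56, adjusted p = 0.0098), a call lost without the GC trend, and rose in HepG2 cells (0.70, adjusted p = 0.031), where it missed the threshold with Ensembl scaling at a larger 1.10. It passed the filter on low values through the parental samples in Huh7 cells (1.29 to 2.06 FPKM, against 0.51 to 0.88 FPKM in resistant ones), and in HepG2 cells through the resistant samples (1.94 to 2.13 FPKM, against 0.45 to 1.24 FPKM in parental ones). Its values, 0.45 to 2.13 FPKM over all samples, were far below those of PROX1. Inside an intron of NR5A2 lies RNU6-570P, a copy of a small nuclear RNA gene, with 45.1 to 94.9 FPKM in parental and 10.5 to 18.3 FPKM in resistant Huh7 samples and 11.5 to 21.0 FPKM in parental and 30.7 to 51.7 FPKM in resistant HepG2 samples. RNU6-570P spans only chr1:200054061-200054165, against 7559 exonic bases in NR5A2, so the same FPKM stands for far fewer reads in it. It shares 0 exonic bases with NR5A2, and its part in the NR5A2 values was not tested. CEBPB-AS1 overlaps 11.8% of the CEBPB exon and was not analysed here.

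For each of the 7 genes, the other genes whose centred log2(FPKM + 1) profile over the 12 samples was the nearest were sought among 10688 genes. HNF4A was nearest to MRPL58, a mitochondrial ribosomal protein, with a root mean square difference of 0.058 against a spread of 0.36 in HNF4A itself. URB1, a ribosome biogenesis gene, followed at 0.064. FOXA1 was nearest to TERF2 (0.10) and ATXN7L3B (0.11), FOXA2 to DHPS (0.068) and KDM4B (0.097), and FOXA3 to GRWD1 (0.13) and INTS5 (0.16). CEBPB was nearest to SLC7A1, a cationic amino acid transporter (0.20), and HLA-E (0.22), with a spread of 1.21 in CEBPB. PROX1 was nearest to TIAM2 (0.090) and ZC3H8 (0.11), and NR5A2 to ADSS (0.076) and CNOT2 (0.085). Among the 7 genes the smallest distances were 0.333 between FOXA1 and FOXA3 and 0.335 between HNF4A and FOXA2. The distance between HNF4A and FOXA2 was larger than the spread of 0.25 in FOXA2 itself, so it does not show that their profiles are alike. FOXA3 and CEBPB were farther apart with 1.68. These distances describe 4 groups of 3 samples and say nothing of shared control.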

How the data were processed

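Deposited per-sample tables held 1 value per gene for 12 samples. The unit is not stated. The values were taken as FPKM made by the authors, since value times exon length fell on whole multiples of 1 read in each sample (99.8% of the checked values within 0.05 of a read, tested in 6613 single-exon genes). The same pattern would result from RPKM. The aligner and counter are not given in the sources used here. The labels name bcl2fastq and GRCh38, and the labels and the paper name different RNA extraction reagents. Groups and replicate numbers came from the sample titles.

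A gene was tested in a line where 3 or more samples reached 1 FPKM, and it was tested on log2(FPKM + 1) with limma 3.58.1 in R 4.3.3, with a variance trend and Benjamini-Hochberg adjustment over all genes tested. Each line was fitted alone for resistant against parental cells, and all 12 samples together for the interaction and the comparisons between lines. A fold change on this scale understates changes of low genes. Tables were read with Python 3.11.15 and pandas 2.3.3, and exon lengths, GC content and positions came from GENCODE release 29. Alternatives were a pseudocount of 0.1, no filter, upper-quartile, median-ratio and Ensembl-sum scaling, a lowess GC trend (span 0.3) taken off each library, limma-voom on the reads, a replicate block, the block with the GC trend taken off, all 12 samples in 1 fit, and each sample left out. The fit was tested on simulated data. The genes, lists and alternatives were chosen with earlier results of these data known. Named genes are all members found, up to 4 genes per list and line with the largest change among those that passed, the 2 nearest profiles of each member, and genes overlapping a member. Some of the genes chosen this way are not reported here. Reads are not independent molecules, so read numbers give counting precision only.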

Additional observations from a re-analysis of the deposited data

Results flagged for a closer look

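The change with resistance differed between Huh7 and HepG2 cells, by limma's interaction term over 12 samples, for 5 of the 7 genes. The same test was passed by 56.3% of the 10688 genes tested in both lines, so a difference was common among all genes. The difference of the log2 fold changes, Huh7 less HepG2, was 0.76 for HNF4A, 0.99 for FOXA3, 1.66 for CEBPB, -0.81 for PROX1 and -1.13 for NR5A2. HNF4A, CEBPB and NR5A2 passed in all 21 alternatives. PROX1 did not pass in the 2 with the GC trend removed, and FOXA3 did not in 9.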

How the results depend on the processing

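Over the 5 comparisons and 7 genes, 581 values under alternatives were compared with those reported: 516 kept direction and side of the threshold, 25 fell below it, 20 rose above it and 20 changed sign. The causes were not tested. In Huh7 cells FOXA2 turned to -0.40 without the GC trend, also with a replicate block, and to -0.12 with Ensembl genes scaled to the same sum, an alternative chosen after seeing the data. The DEGs in Huh7 numbered 2838, but 1446 without the GC trend, 1450 without it and with a replicate block, and 4278 with limma-voom. In HepG2 cells they numbered 737, but 1176 with limma-voom, and 2 of the 7 genes passed without the GC trend, with and without a replicate block. HNF4A in HepG2 cells changed sign to -0.063 with upper-quartile scaling, -0.11 with median-ratio scaling and -0.074 without the GC trend, also with the block, and ranged from -0.11 to 0.14 when single samples were left out, FOXA1 from -0.041 to 0.35 and PROX1 from -0.26 to 0.045. Between parental lines PROX1 turned to -0.065 without the GC trend, also with the block. Between resistant lines HNF4A turned to -0.11 without the GC trend, also with the block, and to -0.11 with Ensembl scaling, and NR5A2 to -0.10 with Ensembl scaling. Leaving out single samples gave -0.069 to 0.18 for HNF4A and -0.023 to 0.15 for NR5A2.

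Correlations of the deviations of same-numbered samples were 0.08, 0.06 and -0.23 in Huh7 cells. In HepG2 cells they were 0.25, 0.44 and -0.01, so numbers 1 and 2 deviated together there and number 3 did not. Mean correlations with the other numbers were -0.04, -0.03 and 0.11 in Huh7 and -0.11, -0.24 and 0.002 in HepG2 cells. Not every pair exceeded 0.1 in either line, so the numbers were not taken to pair the samples. With a replicate block alone 3 calls changed: the interactions of FOXA1 (0.52, adjusted p = 0.037) and FOXA2 (0.58, adjusted p = 0.037) and FOXA3 between the parental lines (0.36, adjusted p = 0.023) passed. Resistant against parental HepG2 cells, the block moved the limma adjusted p of FOXA3 from 0.43 to 0.067. That of FOXA2 moved from 0.14 to 0.054, and neither gene passed.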
